A study of Mus musculus with 4 samples.

Results

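A set of 8 genes of plasminogen activation and blood coagulation, out of 54532 genes in the deposited table, was followed in cultured mouse epidermal stem cells (EpSCs), the keratinocyte progenitors of the skin. They were chosen by name, with earlier results of these data known: Plau, Plaur, Plat, Serpine2, F3, Thbd, Tfpi and Anxa2. All 8 had 1 row each and all 8 were among the 14056 genes that passed the filter on low counts. The cells came from the skin of C57BL/6 mice and were kept in supplemented EpiLife medium. One group received 30 μg/mL ALP, taken to be the burdock (Arctium lappa L.) polysaccharide of the series title, for 48 h, and the control group received 0.06% DMSO for 48 h. Each group held 2 bulk RNA-seq libraries, called A and B here as names only. The labels do not state the number or age of the mice, whether the libraries of a group were separate cultures, or whether the ALP cultures also contained DMSO. The p-values therefore reflect only the spread among these libraries, which could be technical.

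Plasminogen is a circulating zymogen that urokinase (Plau) and tissue plasminogen activator (Plat) cleave to plasmin, a protease that digests fibrin and matrix. The urokinase receptor (Plaur) holds urokinase at the cell surface, annexin A2 (Anxa2) with its partner S100a10 forms a docking site for plasminogen, and serpins such as Serpine2 (protease nexin-1) inhibit the activators. In coagulation, tissue factor (F3) starts the cascade that makes thrombin, Tfpi blocks that start, and thrombomodulin (Thbd) turns thrombin toward activation of the anticoagulant protein C. Keratinocytes at the edge of a skin wound are known to switch on urokinase and its receptor as they migrate through fibrin, and the epidermis is a classical site of tissue factor expression.

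Library totals lay between 15766244 and 17430345 counts. The first principal component held 85.8% of the variance and placed ALP replicate B at -76.92, ALP replicate A at -21.61 and the controls at 42.72 and 55.81, so the ALP libraries differed more from each other than the controls did. Of the markers listed for keratinocytes, all 10 were expressed above the filter, with Krt14 between 11170 and 19151 CPM (counts scaled to library size with TMM factors) in the 4 libraries. Their summed level was 39680 and 32660 CPM in the ALP libraries and 53160 in each control, with 2 markers higher and 3 lower in ALP. Krt15 measured 251 and 201 CPM in the controls and 58.4 and 1.75 CPM in ALP replicates A and B. It was not called (edgeR adjusted p = 0.120). Endothelial cells, fibroblasts and myeloid cells can also make several of these factors. Of 6 endothelial markers, Emcn and Cldn5 had 0 counts in all libraries and Cdh5 had at most 0.113 CPM, while Pecam1 and Kdr were higher and Tek lower in ALP. The endothelial sum was 6.17 and 7.71 CPM in control and 14.6 and 25.0 in ALP. The 7 fibroblast markers summed to 19.1 and 15.5 CPM in control and 9.72 and 6.92 in ALP, with Dcn lower (adjusted p = 0.0332) and the other 5 tested not called. The 6 myeloid markers summed to 9.85 and 10.4 CPM in control and 7.58 and 5.17 in ALP, and Cd68, the 1 marker of them that passed the filter, was not called (adjusted p = 0.0835). Lum was at 0 counts in all libraries, and Ptprc reached at most 0.0566 CPM. The 5 melanocyte markers, all tested and none called, summed to 60.14 and 56.55 CPM in control and 63.59 and 52.75 in ALP. The 4 pericyte and smooth muscle markers, mostly Acta2, summed to 123.3 and 141.7 CPM in control and 100.5 and 120.6 in ALP, with Cspg4 lower. Of 3 Langerhans cell markers, Cd207 had 0 counts and H2-Ab1 was below the filter. The third, Epcam, was higher in ALP (112 and 161 CPM in control, 423 and 583 in ALP). The part of these markers in the results was not tested.

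In control cultures the 8 genes spanned a wide range of levels per gene length, given here as FPKM (fragments per kilobase of gene length, scaled to the total count), computed from the counts and the gene lengths in the table. Anxa2 was the most abundant, with 725 and 739 FPKM, and ranked 34 and 32 among the tested genes. F3 (54.9 and 80.6 FPKM) and Plau (58.7 and 72.6) followed, and their values overlapped. Plaur (2.96 and 4.42) and Serpine2 (2.04 and 2.99) also overlapped. Thbd stood at 1.45 and 1.27 FPKM, Plat at 0.534 and 0.425, and Tfpi at 0.336 and 0.179, each below the one before in every control library. Under ALP the order changed at 2 places: Plaur, with 23.6 and 39.5 FPKM, moved clear of Serpine2 (3.29 and 3.23), and Plat (0.285 and 0.0508) came to overlap Tfpi (0.263 and 0.453).

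**Figure D1:**
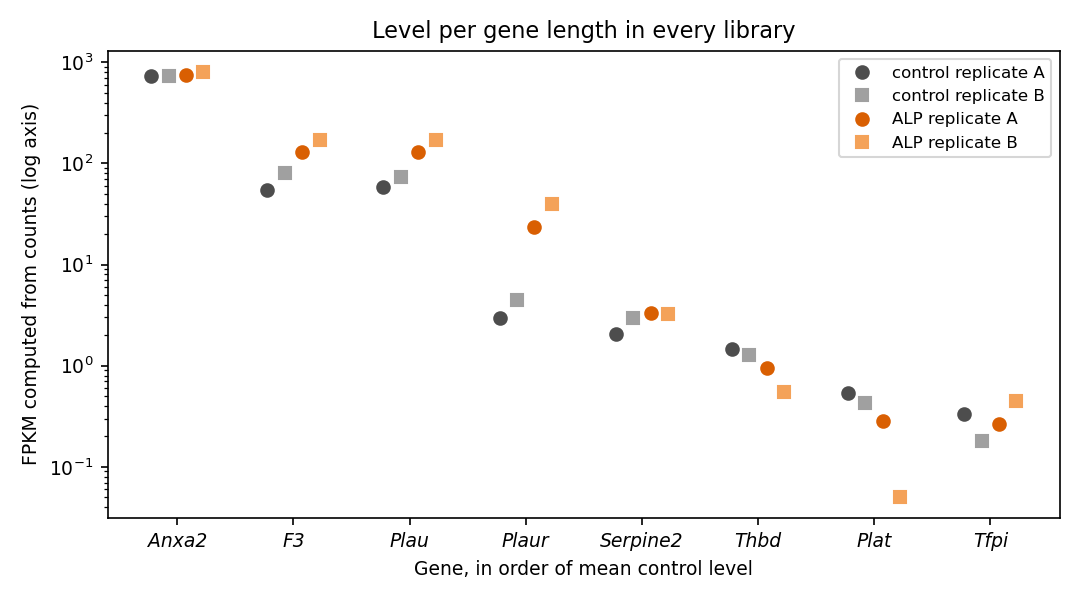
FPKM computed from the counts (log axis) of the 8 genes in every library, ordered by mean control level; each point is 1 library. Plaur sits at 2.96 and 4.42 in control and at 23.6 and 39.5 in ALP, while Anxa2 lies between 725 and 801 in all 4 libraries.

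The design holds a single comparison, ALP against control, in a series whose title concerns proliferation of these cells. Plaur, Plau and F3 rose: the urokinase receptor 8.76-fold, urokinase 2.32-fold and tissue factor 2.25-fold by the ratio of mean CPM. Plat, Thbd, Serpine2, Tfpi and Anxa2 were not called in either direction. Of the 8 genes, 3 were thus higher and 0 lower by edgeR's quasi-likelihood test at an adjusted p under 0.05, against 18.0% of all tested genes higher, 12.9% lower and 30.9% called in either direction. By DESeq2 and by limma-voom 0 were lower as well, and Thbd was the only one of the others with an unadjusted p under 0.05 by edgeR. The median log2 fold change of the 8 was 0.45, beside -0.0029 over all genes. In 7 of the 8 genes the ALP libraries lay wholly on one side of the controls, as they did in 75.7% of all genes tested, so this share is near the background. EdgeR called 0 of the 8, and 0 of all genes, when control replicate A was omitted (3380 genes at an unadjusted p under 0.05) and when control replicate B was omitted (4131 such genes). DESeq2 and limma-voom, run on all 4 libraries, each called the same number, 3 of the 8.

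Plau (ENSMUSG00000021822; chromosome 14, 20836660 to 20843385, plus strand, GRCm38) encodes urokinase, the main activator of plasminogen at cell surfaces. It measured 137 and 170.3 CPM in the controls and 306 and 406 CPM in ALP replicates A and B. Both ALP libraries were above both controls, and replicate B was the higher of them. The log2 fold change of Plau was 1.21 ± 0.17 (SE, n = 2 libraries in each group; 95% interval 0.78 to 1.65; edgeR adjusted p = 0.0151). The change was 1.05 with control replicate A omitted and 1.38 with control replicate B omitted, at adjusted p = 0.128 and 0.0593 in these edgeR fits.

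Plat (ENSMUSG00000031538; chromosome 8, 22757727 to 22782844, plus strand) encodes the other activator, best known from vessel walls and nerve tissue, and was scarce. Its counts were 58 and 46 in the controls and 31 and 5 in ALP replicates A and B, which is 3.28, 2.63, 1.79 and 0.323 CPM. The value of 5 counts has an exact 95% Poisson interval of 0.105 to 0.754 CPM, which covers counting error only. Both ALP libraries were below both controls, but they differed from each other by more than their counting intervals. The log2 difference was -1.44 ± 0.61 (95% interval -2.96 to 0.08) and did not pass (adjusted p = 0.122). It was -3.17 without ALP replicate A, with an adjusted p of 0.000942, and -0.71 without ALP replicate B, so 1 library decides its size. A fit without ALP replicate A takes its spread from the control pair alone.

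The activator's receptor showed the largest difference among the 8. Plaur (ENSMUSG00000046223; chromosome 7, 24462484 to 24475968, plus strand), a lipid-anchored surface protein of the Ly6 family, measured 7.65 and 11.5 CPM in the controls and 62.2 and 105 CPM in ALP. Its counts were 135 and 201 against 1075 and 1631. The lower ALP library was several times above the higher control, and the spread within ALP was wide. Plaur rose by 3.13 ± 0.32 on the log2 scale (95% interval 2.33 to 3.93; adjusted p = 0.0149, the smallest that any gene reached). Leaving out 1 library at a time gave between 2.71 and 3.46, and the adjusted p was 0.128 with control replicate A omitted and 0.0555 with control replicate B omitted.

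The promoter windows of RefSeq (GRCm38.p6, 250 bases before to 50 bases after the start site) covered 5 of the 8 genes, Plaur, F3, Anxa2, Serpine2 and Tfpi. Those of Plaur and F3, which rose, and of Anxa2, which was not called, are shown because all 3 hold the AP-1 letters TGANTCA, which, apart from the middle base N, are their own reverse complement. Capitals mark these letters. The windows lie at chr7:24462233-24462532, chr3:121723287-121723586 and chr9:69453433-69453732, all on the plus strand.
Plaur: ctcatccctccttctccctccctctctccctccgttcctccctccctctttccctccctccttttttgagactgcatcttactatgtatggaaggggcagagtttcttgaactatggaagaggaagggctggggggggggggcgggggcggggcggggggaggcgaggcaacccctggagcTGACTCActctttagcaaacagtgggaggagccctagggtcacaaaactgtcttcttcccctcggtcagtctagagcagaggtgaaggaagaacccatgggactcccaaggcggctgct
F3: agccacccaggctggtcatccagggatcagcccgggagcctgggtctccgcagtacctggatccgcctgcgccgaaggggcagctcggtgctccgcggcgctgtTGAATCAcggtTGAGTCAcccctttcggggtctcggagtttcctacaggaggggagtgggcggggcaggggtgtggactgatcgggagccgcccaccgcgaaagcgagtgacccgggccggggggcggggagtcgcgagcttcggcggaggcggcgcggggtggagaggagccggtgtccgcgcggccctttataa
Anxa2: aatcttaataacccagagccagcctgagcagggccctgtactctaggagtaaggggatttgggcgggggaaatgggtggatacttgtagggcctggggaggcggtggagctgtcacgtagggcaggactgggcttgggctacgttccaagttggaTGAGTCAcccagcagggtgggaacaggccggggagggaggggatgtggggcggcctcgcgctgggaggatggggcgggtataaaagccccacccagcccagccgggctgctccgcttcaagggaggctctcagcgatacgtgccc
The AP-1 letters begin at position -69 in Plaur, at -146 and -135 in F3 and at -95 in Anxa2, counted from the RefSeq start site. They occur in 7.81% of the 32851 windows in the table, and not in the windows of Serpine2 and Tfpi, where this says only that the letters are absent from these 300 bases. Genes that rose and a gene that was not called thus share them. The SP1 letters GGGCGG, on either strand, occur in all 5 genes and in 35.7% of all windows. In Plaur they stand at -111, -105 and -100, and those at -111 and -105 overlap the EGR letters GCGNGGGCG at -109. The EGR letters also occur in Serpine2, which was not called, at -17, and in 5.55% of all windows. The searched CRE (TGACGTCA), ETS (CCGGAAGT), NF-kB, TEAD (GGAATG) and CCAAT letters had no match in the 6 windows of these genes, and TATAAA on either strand had 1 in Anxa2, at -17, 1 in F3, at 44, and 1 in a window of Tfpi, at -127. A match of letters is a description and shows no binding.

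The inhibitor of the set, Serpine2, was not called. Serpine2 (ENSMUSG00000026249; chromosome 1, 79794197 to 79861180, minus strand), which inhibits thrombin, urokinase and tissue plasminogen activator, measured 16.7 and 24.6 CPM in control and 27.5 and 27.3 in ALP. The ALP values were nearly equal and above both controls, but the gap to control replicate B was smaller than the gap between the controls. The log2 difference was 0.41 ± 0.20 (95% interval -0.09 to 0.91; adjusted p = 0.164). Leaving out the controls in turn gave 0.15 without replicate A and 0.72 without replicate B.

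Anxa2 (ENSMUSG00000032231; chromosome 9, 69453620 to 69491795, plus strand), the calcium-dependent membrane protein that carries plasminogen at the surface, differed little between the groups. It measured 2666 and 2734 CPM in the controls and 2845 and 3047 in ALP. All ALP values were above the controls, but the log2 difference of 0.13 ± 0.12 did not pass (adjusted p = 0.446), and its 95% interval ran from -0.17 to 0.42. An antisense gene, Gm16144, shares 2.63% of the exon bases of Anxa2 and had 222 counts against 191244 for Anxa2 over the 4 libraries, and none of the other members shares exon bases with another gene in GENCODE M21. S100a10, which encodes the partner subunit of annexin A2, rose by 0.64 ± 0.14 (adjusted p = 0.0277, and 0.0508 by limma-trend on log2(FPKM + 1)), from 681 and 830.3 CPM to 1078 and 1274.

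**Figure D2:**
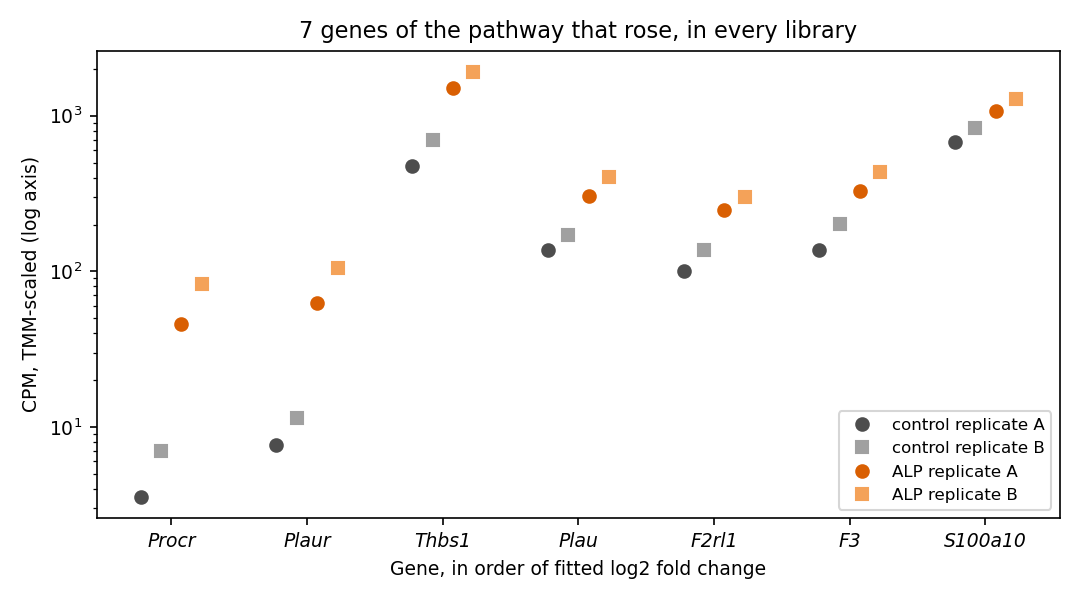
TMM-scaled CPM (log axis) of 7 genes that rose, among them Plaur, Plau and F3, in every library; each point is 1 library and the genes are ordered by fitted log2 fold change. In each gene both ALP libraries lie above both controls, with the widest fold in Procr (3.57 and 7.03 against 45.8 and 82.6 CPM), and ALP replicate B is the higher of the ALP libraries throughout. The 7 were picked from genes called higher, so this separation is no added evidence. In 75.7% of all tested genes the groups also did not overlap.

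On the coagulation side the initiator rose and its direct inhibitor was barely expressed. F3 (ENSMUSG00000028128; chromosome 3, 121723537 to 121735048, plus strand), the membrane receptor for factor VII, measured 137 and 202 CPM in the controls and 328 and 436 in ALP. Both ALP libraries exceeded both controls, and the controls differed from each other more in proportion for F3 than for Plau. F3 rose by 1.17 ± 0.22 (95% interval 0.62 to 1.73; adjusted p = 0.0196). Without control replicate A the change was 0.91 with an adjusted p of 0.135, and without control replicate B it was 1.49 with an adjusted p of 0.0576.

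Tfpi (ENSMUSG00000027082; chromosome 2, 84432855 to 84476775, minus strand), the Kunitz-type inhibitor of tissue factor and factor Xa, had 32 and 17 counts in the controls and 25 and 39 in ALP, or 1.81, 0.971, 1.45 and 2.52 CPM. The groups overlapped, the only such case among the 8. The log2 difference was 0.50 ± 0.46 with a 95% interval of -0.65 to 1.64 (adjusted p = 0.435), so at this depth neither a rise nor a fall was detectable. Its relative Tfpi2 had 2 counts in ALP replicate B and 0 in the other libraries, where 3 counts would correspond to between 0.17 and 0.174 CPM.

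Thbd (ENSMUSG00000074743; chromosome 2, 148404466 to 148408188, minus strand), the thrombin receptor thrombomodulin, whose gene has a single exon, measured 5.32 and 4.68 CPM in the controls and 3.59 and 2.07 in ALP, from 94, 82, 62 and 32 counts. Both ALP libraries were lower, replicate B by more. The log2 difference was -0.81 ± 0.32 (unadjusted 95% interval -1.60 to -0.02) and did not pass after adjustment (adjusted p = 0.100). It was -1.28 without ALP replicate A, with an adjusted p of 0.00751, and -0.47 without ALP replicate B. The summed fibroblast and myeloid markers were likewise below both controls in both ALP libraries. So were the summed keratinocyte markers (53160 CPM in each control, 39680 and 32660 in ALP) and the summed pericyte and smooth muscle markers. The summed endothelial and Langerhans cell markers were above both controls, and the melanocyte sums overlapped. Of the fibroblast markers tested only Dcn was called lower (13.1 and 8.57 CPM in control, 3.07 and 0.517 in ALP). Cd68 made up most of the myeloid sum. The part of these markers in the values of Plat and Thbd was not tested. Here, as for Plat, fewer cells of a type and less RNA per cell cannot be told apart in bulk samples. Procr, which encodes the endothelial protein C receptor that works beside thrombomodulin, moved in the other direction. It measured 3.57 and 7.03 CPM in the controls and 45.8 and 82.6 CPM in ALP and rose by 3.60 ± 0.42 (adjusted p = 0.0149). Its change was 4.17 without control replicate B and 3.18 without control replicate A.

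The wider pathway was read from 4 lists, which add 67 genes to the 8 and of which 31 were tested. Of these 31, 12 rose and 7 fell, a share of 61.3% called beside 30.9% of all genes. By direction, 18.0% of all tested genes were higher and 12.9% lower, which is also the background for the counts of each list below. The median log2 fold change of the 31 was -0.01. The lists were chosen with earlier results of these data known, so the 61.3% is no independent evidence about the pathway. The other 36 were below the filter, among them Plg, which encodes plasminogen itself (0, 1, 1 and 4 counts in control A, control B, ALP A and ALP B), and F2, which encodes prothrombin (1 count over the 4 libraries). These are chiefly made by the liver. All counts of called genes in the lists were 0 with either control library left out, in fits where 0 of all genes were called.

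Among 12 other tested genes of the list of activators, receptors and activating proteases, 3 rose and 4 fell, with a median of -0.18. This list also holds receptors that clear urokinase, so the count has no single functional direction. St14, encoding the membrane protease matriptase, an activator of pro-urokinase, measured 114 and 130.4 CPM in control and 214 and 258 in ALP and rose by 0.95 ± 0.13 (adjusted p = 0.0149). Igf2r, a receptor for lysosomal enzymes that also binds the urokinase receptor, rose by 0.44 ± 0.08. S100a10 was the third of those that rose. Vldlr, of the lipoprotein receptors that take up inhibited urokinase, fell by 1.62 ± 0.26, from 50.8 ± 2.67 CPM in control to 16.4 ± 6.23 in ALP (SD, n = 2). The other genes that fell are named to complete the count, after their values were seen. Lrp1, the main receptor for clearance of inhibited urokinase with its receptor, fell by 1.74 ± 0.41, with a difference of -2.57 if ALP replicate A is omitted. Prss8, the epidermal protease prostasin, fell by 0.86 ± 0.22, and Plgrkt, a plasminogen receptor, by 0.55 ± 0.14. The count of Prss8 is uncertain, as it shares 6.59% of its exon bases with Kat8 on the opposite strand. Kat8 had 1395 counts over the 4 libraries against 814 for Prss8. Urokinase and its receptor rose in the cultures in which the lipoprotein receptor genes Lrp1 and Vldlr fell, and a link was not tested. Lrp8, of the same receptor family, rose by 2.85 ± 0.33 (edgeR adjusted p = 0.0149).

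Among 6 other tested inhibitors, 1 rose and 3 fell, with a median of -0.26. This list is mixed and also holds inhibitors of proteases upstream of plasminogen activation, so the count has no single target. Serpinb6a rose by 0.77 ± 0.12 (adjusted p = 0.0155). It has close paralogs. Nqo2, 1110046J04Rik and Ripk1 on the opposite strand share 14.1%, 10.8% and 4.46% of its exon bases, so its count is uncertain. Serpinb2, which encodes PAI-2, the inhibitor that keratinocytes hold mostly inside the cell, measured 272 and 281 CPM in control and 203 and 182 in ALP and fell by 0.52 ± 0.09 (adjusted p = 0.0171). It shares 12.4% of its exon bases with Serpinb10 on the same strand. Spint2, an inhibitor of matriptase and prostasin, fell by 0.50 ± 0.09. The related inhibitor gene Spint1 was not called (log2 difference -0.01 ± 0.09, edgeR adjusted p = 0.927). Serpinb8, of the same serpin clade as Serpinb2, fell by 1.79 ± 0.45, with a difference of -2.76 if ALP replicate A is omitted.

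Among 7 other tested coagulation genes, 4 rose and 0 fell, with a median of 0.36. Over all tested genes 18.0% were higher and 12.9% lower, so with 7 genes a count of 0 lower is near the background. At an unadjusted p under 0.05 the number that fell was also 0, and it was 0 by DESeq2 and limma-voom. None of the 4 that rose is a clotting factor. Lman1 and Mcfd2, which form the receptor that carries factors V and VIII out of the endoplasmic reticulum, rose by 0.78 ± 0.09 and 0.48 ± 0.13 (for Mcfd2 adjusted p = 0.0517 by limma-trend). Ggcx, the carboxylase that modifies vitamin K-dependent factors, rose by 0.50 ± 0.12, and Vkorc1l1, a vitamin K reductase, by 0.36 ± 0.09 (adjusted p = 0.0376, and 0.0507 by DESeq2 and 0.0577 by limma-trend). Lman1 and Mcfd2 serve secretion more widely in cells that make no clotting factors.

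Among 6 other tested genes of the list of anticoagulants and thrombin receptors, 4 rose and 0 fell, with a median of 0.87. With 6 genes a count of 0 lower is near the background of 12.9%. The list is mixed and also holds the receptor gene F2rl1 and the matrix protein gene Thbs1. By edgeR 1 gene, the thrombin receptor gene F2r, was lower at an unadjusted p under 0.05 (log2 difference -0.43 ± 0.16, adjusted p = 0.0854). By DESeq2 and limma-voom 0 fell. Next to Procr, F2rl1, which encodes the protease-activated receptor PAR-2 that trypsin-like proteases and the tissue factor complex cleave, measured 101 and 138 CPM in control and 248 and 301 in ALP and rose by 1.20 ± 0.18 (adjusted p = 0.0151). Thbs1, encoding the matrix protein thrombospondin-1, went from 477 and 702 CPM to 1516 and 1911. Anxa5, encoding a phospholipid-binding protein that shields procoagulant membrane, rose by 0.54 ± 0.13 (adjusted p = 0.0297).

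**Figure D3:**
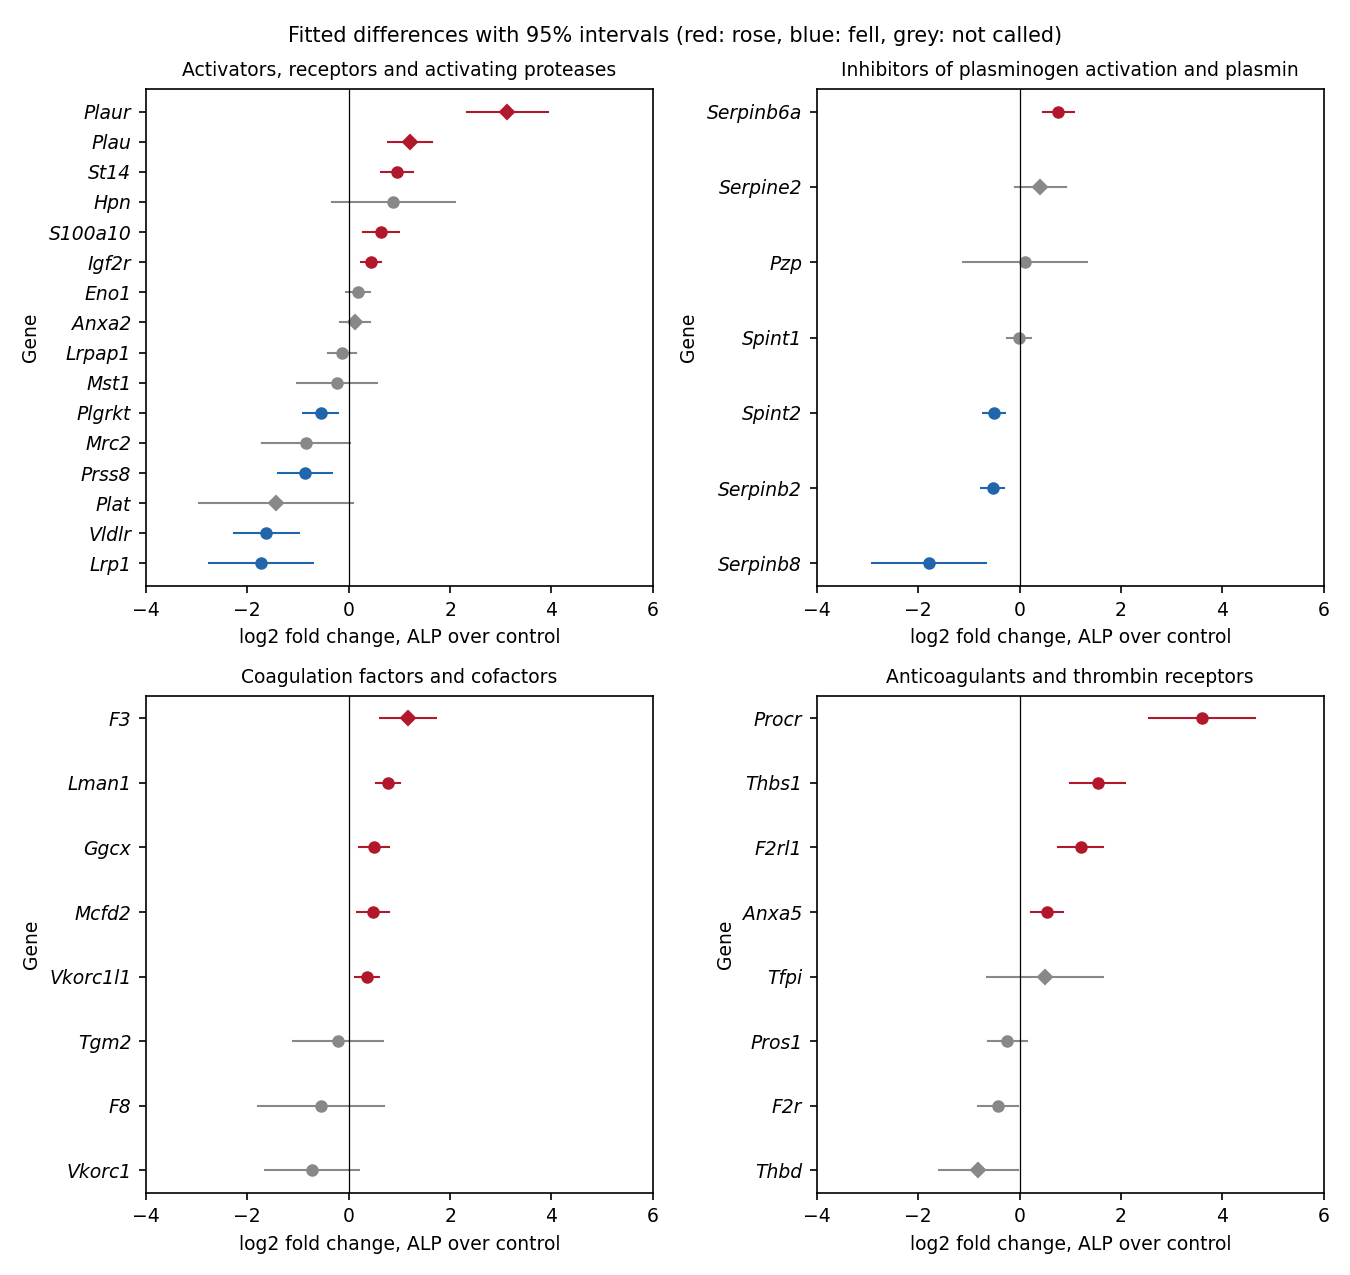
Fitted log2 fold change of ALP over control with its unadjusted 95% interval for the tested genes of the 4 lists that are reported here; diamonds are the 8 genes of the set, circles the others, red marks genes that rose, blue those that fell and grey those not called at an adjusted p of 0.05. Procr (3.60) and Plaur (3.13) stand farthest to the right, and Lrp1 (-1.74) and Serpinb8 (-1.79) farthest to the left among the called genes.

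Ratios between partner genes within a library do not depend on its depth or scaling, and they are given per gene length, as ratios of FPKM. Against its receptor, Plau stood at 19.8 and 16.4 in control and at 5.45 and 4.26 in ALP. This ratio was lower in ALP although Plau itself rose, as Plaur had the larger fold change. The mean log2 ratio differed by -1.90, with an SD of 0.19 among controls and 0.25 among ALP libraries. The ratio of Plau to Serpine2 went the other way, from 28.7 and 24.3 to 39.0 and 52.2.

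Plat was 0.00909 and 0.00585 of Plau per length in the controls and 0.00222 and 0.000302 in ALP, so urokinase was the predominant activator transcript in every library. For F3 over Thbd the ratio was 37.9 and 63.5 in control and 135 and 310.3 in ALP. For F3 over Tfpi it was 163 and 450 in control and 491 and 374 in ALP, and the groups overlapped. The ratio of Anxa2 to S100a10 was 1.27 and 1.07 in control and 0.857 and 0.777 in ALP. In 5 of the 6 pairs the groups did not overlap, beside 75.7% of all tested genes taken singly. The pairs are built from genes chosen with earlier results of these data known. With 2 against 2 libraries the exact two-sided permutation test cannot give a p below 0.333, which these 5 pairs reached, and F3 over Tfpi had an exact p of 0.667.

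**Figure D4:**
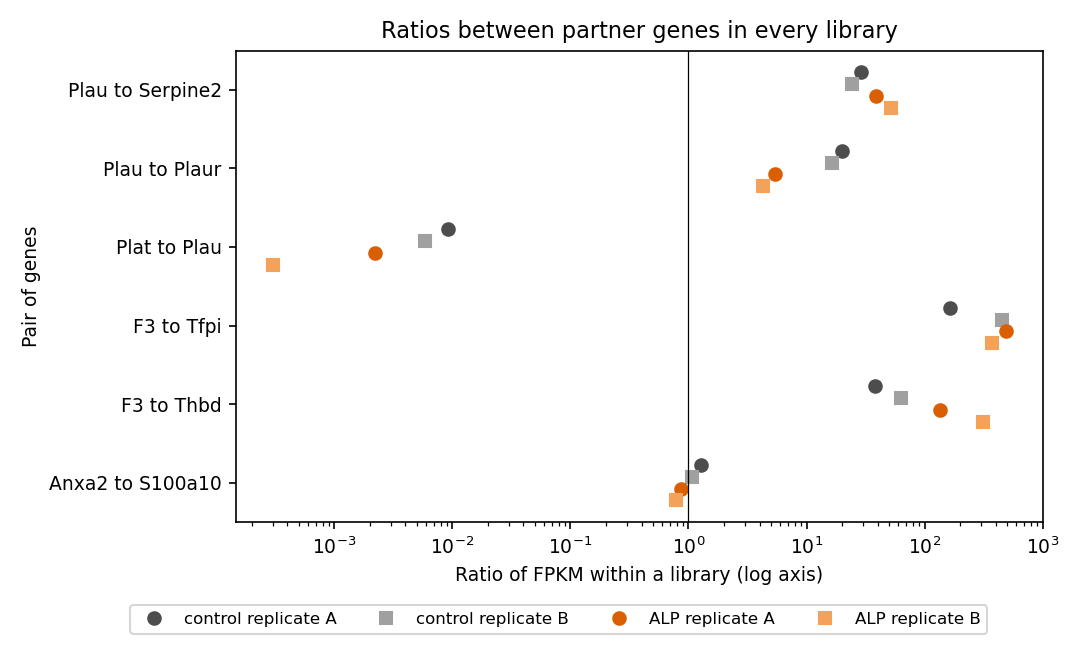
Ratio of FPKM between 6 pairs of partner genes in every library (log axis); each point is 1 library and the vertical line marks equal levels per gene length. Plau over Plaur drops from 19.8 and 16.4 in control to 5.45 and 4.26 in ALP, and F3 over Tfpi is the pair whose groups overlap.

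The genes most like Plau over the 4 libraries, by Euclidean distance between centred log2 CPM among 8963 protein-coding genes averaging 10 CPM or more, were Cdr2 (distance 0.02), Tpm1 (0.03) and Trmt61a (0.03). Tpm1, which encodes a tropomyosin of the actin cytoskeleton, measured 538 and 680.2 CPM in control and 1206 and 1629 in ALP. Those most like Plaur were Ddah1 (0.12), Mmp9 (0.30) and Lrp8 (0.31). Mmp9, which encodes the gelatinase MMP-9, measured 20.8 and 37.4 CPM in control and 222 and 357 in ALP. With 4 libraries such likeness describes shared values only.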

How the data were processed

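RNA was extracted with TRIzol and libraries were made by a service company, per the labels' protocols. The kit and its strandedness are unknown here, so a gene's reads may include those of an antisense gene. The authors deposited whole-number counts per gene and library with gene lengths in bases (an other kind of value). Their notes on processing name HISAT2 2.0.5 for alignment and featureCounts 1.5.0-p3 for counting (per the submitters' processing notes), and the build GRCh38. The identifiers are mouse ones, 99.8% of them in GENCODE M21 and 98.3% with the same coordinates, so positions are GRCm38. Replicate numbers in the columns differ from those of the labels, so a column was given its group alone. The 4 columns of deposited FPKM, which could likewise not be tied to single samples, were not used. FPKM was computed from counts, lengths and total counts.

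Counts were fitted with edgeR 4.0.16 in R 4.3.3: filterByExpr (minimum count 10, minimum total 15), TMM, quasi-likelihood with the current (not legacy) dispersions, group as the only term, 2 residual degrees of freedom, Benjamini-Hochberg over 14056 genes, call at an adjusted p under 0.05, two-sided. DESeq2 1.42.0 and limma 3.58.1 served as alternatives. Standard errors are the log2 fold change over the root of the F statistic, and 95% intervals of differences are unadjusted. Intervals of counts cover counting error only.

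The 8 genes and the lists were chosen with earlier results of these data known. Named beyond the 8 were, per list, the 4 other tested genes with the smallest p, then Serpinb2, S100a10, F2rl1, Tfpi2, Procr, Plg and F2, and the 3 genes most like Plau and Plaur. Plgrkt, Lrp1, Prss8, F2r and Spint1 were named after their values were seen. A gene of the inhibitor list is not reported here, and list counts leave it out. The planned comparison of protein sequences was not run.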

Additional observations from a re-analysis of the deposited data

How the results depend on the processing

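Plaur, Plau and F3 were higher in every alternative run, and 3 of the 8 genes were called higher with RLE or upper-quartile scaling, by DESeq2, by limma-voom, with a minimum count of 50 and without either ALP library, and also with legacy dispersions and by limma-trend on log2(FPKM + 1), which were chosen after seeing the data. Without the filter on low counts edgeR called 0 genes higher and 0 lower over the whole table and 0 in the set and the lists, with a smallest adjusted p of 0.0524 and 7068 genes at an unadjusted p under 0.05. Leaving out 1 library at a time moved the calls over all genes between 0 and 3872 higher and between 0 and 3646 lower, those in the set between 0 and 3 higher and between 0 and 2 lower (Plat and Thbd, without ALP replicate A), and those in the lists between 0 and 15 higher and between 0 and 9 lower. The zeros for genes called higher come from fits without a control library. A fit without 1 library takes its spread from the other group alone.

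No paired analysis was possible because the column numbers differ from the replicate numbers in the labels and the groups share only 1 of them. Under the same omissions the differences of the log2 ratios ran from -2.08 to -1.73 for Plau over Plaur, from -4.60 to -1.72 for Plat over Plau and from -0.07 to 1.39 for F3 over Tfpi. Fits and ratios on the deposited FPKM were not run. With a minimum count of 50 Plat and Tfpi were not tested. Plat, Tfpi and Thbd rest on 140, 113 and 270 counts in all, which limits what can be detected for them.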
